A study of Homo sapiens with 6 samples.

Results

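The genes described here encode the receptors and ligands of the tumor necrosis factor (TNF) superfamily and the proteins that carry their signals inside the cell, and they were examined in WM266.4 melanoma cells with silenced RIPK4. They were taken from the deposited table by name and gene type. Every protein-coding gene whose symbol begins with TNFRSF, TNFSF or BIRC was included, as were TRAF genes with a number of 1 digit and TNF, LTB, LTBR, CD40, FAS, TRADD, FADD, CFLAR, TNFAIP3, TNIP1, CYLD and CASP8. The rule found 48 of the 24526 genes in the table, which held 15310 protein-coding genes. The rule uses no measured level, but it was set with earlier results of these libraries known. The 2 groups compared were WM266.4 cultures transfected with a negative control siRNA (neg.si, 3 libraries) and WM266.4 cultures transfected with an siRNA specific for RIPK4 (RIPK4.si, 3 libraries), and RNA was taken 48 h after transfection in both. The line WM266.4 is a long-established culture of human melanoma. Small interfering RNAs (siRNAs) are short RNA duplexes that lead to breakdown of transcripts they pair with, and both groups received one. The labels name no TNF treatment of these cultures, so the levels are those of unstimulated cells. Because RIPK4 was targeted with 1 siRNA, loss of RIPK4 and other effects of that siRNA cannot be told apart.

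TNF superfamily ligands bind receptors that have no enzyme activity of their own. A receptor with a death domain recruits TRADD or FADD, and FADD in turn recruits caspase-8, while other receptors bind TRAF adaptors directly. TRAF2 brings the ubiquitin ligases encoded by BIRC2 and BIRC3 to the receptor, and the ubiquitin chains they build lead to activation of the transcription factor NFκB. Activated NFκB raises transcription of its own inhibitors and of several members of the pathway, among them BIRC3, TRAF1 and TNFAIP3. CFLAR restrains caspase-8, and the products of TNFAIP3, TNIP1 and CYLD limit signaling by binding or removing ubiquitin chains. RIPK4 is a kinase of the receptor-interacting protein family, and the study asked how its silencing changes the transcripts of melanoma cells, including those of inflammation.

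Each library held between 28464057 and 31688095 counts on genes, and the 48 genes took between 0.1748% and 0.1876% of them. The RIPK4 transcript was at 85.8, 76.5 and 54.7 CPM (counts in proportion to the normalized size of the library) in neg.si replicates 1, 2 and 3 and at 19.9, 16.7 and 21.5 CPM in RIPK4.si replicates 1, 2 and 3. Its log2 fold change, RIPK4.si over neg.si, was -1.90 (standard error 0.203, adjusted p = 0.0102 from edgeR). Every adjusted p credited to edgeR comes from its quasi-likelihood test and the Benjamini-Hochberg method. The RIPK4 call was lost, with an adjusted p of up to 0.106, when neg.si replicate 2 or any RIPK4.si library was left out. Replicate 3 of neg.si stood apart on the first principal component, and the deviations of the neg.si libraries followed the GC content of genes in opposite directions (Spearman correlation across genes 0.555 for replicate 1, -0.547 for replicate 3). Values without neg.si replicate 3 are given beside several of the results. The study describes independent experiments and the labels number the replicates without saying what a number marks, so a p-value measures the spread between these libraries. Fewer cells with a transcript and less transcript per cell cannot be told apart in such libraries.

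All 8 melanoma markers examined, among them MITF, SOX10, TYR and PMEL, were at 1 CPM or more, and their summed level was 3570 to 4010 CPM in neg.si and 2630 to 2760 CPM in RIPK4.si. Mean CPM was lower in RIPK4.si for TYR (1350 in neg.si and 911 in RIPK4.si), DCT (700 and 423), S100B (703 and 505), PMEL (280 and 114) and SOX10 (367 and 331). It was not lower for MITF (348 and 358), MLANA (12.5 and 13.1) and TYRP1 (27.9 and 35.9). Of 6 lymphocyte markers, 5 were listed and 0 reached 1 CPM, with summed levels of 0.484 to 0.799 CPM in neg.si and 0.613 to 0.9 CPM in RIPK4.si, and MS4A1 was not listed. Myeloid markers summed to 5.92 to 7.68 CPM in neg.si and 3.46 to 4.26 CPM in RIPK4.si, most of it from ITGAM, while CD68 was not listed. Keratinocyte markers summed to 10.2 to 11.6 CPM in neg.si and 11.8 to 16.1 CPM in RIPK4.si, nearly all of it from KRT10, and KRT1 was not listed. Endothelial markers summed to 1.07 to 1.56 CPM over both groups, and CDH5 was not listed. The part of the myeloid and melanoma marker differences in the results on the TNF pathway was not tested.

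NFκB binds a degenerate 10-base sequence, and its presence in the promoters of these genes was examined because several of them are classical NFκB targets. The letters searched were GGGNNTTNCC, where N is any base, on both strands of a window from 250 bases before to 50 bases after each RefSeq transcription start (GRCh38.p14). At least 1 window was available for 37 of the 48 genes. The letters were found for 11 of the 37, or 29.7%, against 6.85% of all 27305 genes with a window. Counted by window, 13 of 58 (22.4%) held them, against 5.68% of 35116. With 1 mismatch allowed in the fixed letters the shares were 83.8% and 63.1%, so such a loose match is present before most genes. The matches of 6 genes are shown with flanking bases, as 5′ to 3′ sequence of the gene's own strand with the match in capitals, since they include genes that lay lower and genes that lay higher in RIPK4.si. In BIRC3, TNFAIP3, TNFSF13 and CYLD the capitals are the reverse complement of the letters searched.
TNFRSF9, chr1:7940894-7940923, minus strand: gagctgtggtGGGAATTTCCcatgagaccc
BIRC3, chr11:102317275-102317304, plus strand: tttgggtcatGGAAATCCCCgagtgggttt
TNFAIP3, chr6:137867182-137867211, plus strand: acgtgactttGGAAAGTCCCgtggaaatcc
TRAF3, chr14:102777406-102777435, plus strand: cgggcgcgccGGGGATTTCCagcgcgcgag
TNFSF13, chr17:7558131-7558160, plus strand: tcctcctgcgGGGAAATCCCttcctggctg
CYLD, chr16:50741887-50741916, plus strand: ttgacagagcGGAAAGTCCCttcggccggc

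The match begins 74 bases before the start in TNFRSF9, at position -74, and at -199 in BIRC3, -67 in TNFAIP3, -33 in TRAF3, -141 in TNFSF13 and -189 in CYLD. TNFAIP3 and CYLD each hold another match, which begins at position -55 in TNFAIP3 and at the first transcribed base of a further start site in CYLD. The remaining genes with the letters are TNFRSF25, CASP8, TNIP1, FAS and LTB. None of the 3 windows of TRAF1 holds them, which says only that these letters are not in those windows. A match is a description of the sequence and no evidence of binding in these cells. Of the 33 tested genes of the pathway with a window, the 10 with a match had a median log2 fold change of 0.07, 6 of them above 0 and 4 below, and the 23 without a match had a median of -0.01, 11 above 0 and 12 below.

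The 48 genes covered a wide range of transcript levels. Per length, as FPKM (CPM divided by the length of all exons in kilobases) averaged over the 6 libraries, 12 genes were above 10, 19 lay from 1 to 10 and 17 were under 1. BIRC7 was highest with 85.6 FPKM, and TNFRSF21 with 44.6, TNFRSF19 with 32.4 and BIRC2 with 29.3 FPKM followed. At the low end, 6 genes did not pass the filter on low counts and were not tested. These were TNFRSF10C, TNFRSF13C, TNFRSF18, TNFRSF8, TNFSF14 and LTB, with 0 to 16 counts in a library. A count of 0, found in TNFRSF18 and LTB, allows up to 3 counts. Their unadjusted p with DESeq2 lay between 0.491 and 0.674, and counts this low limit what could be detected.

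**Figure D1:**
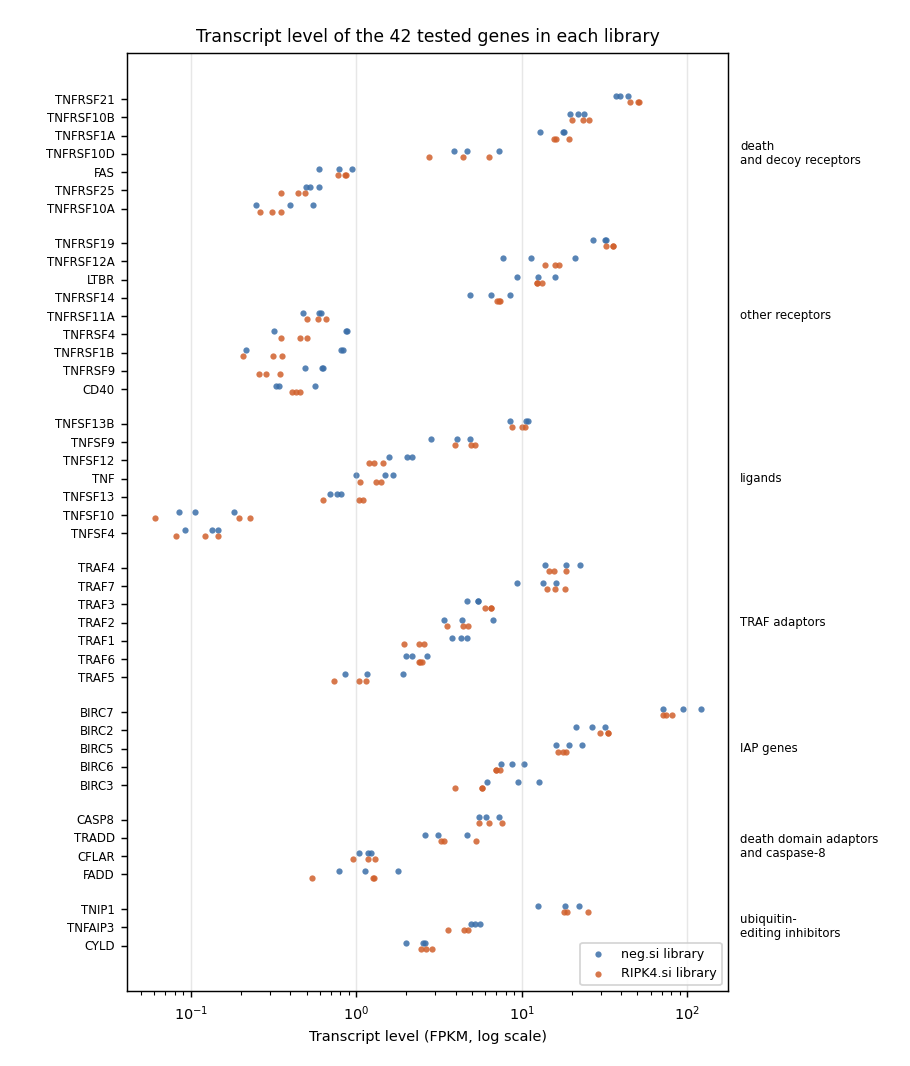
Transcript level in FPKM, on a log axis, of the 42 tested genes in each neg.si library (blue) and each RIPK4.si library (orange), grouped by role and ordered by mean level. The points of the groups interleave for most genes, while those of TRAF1 and TNFRSF9 are separate, with all RIPK4.si points at lower levels.

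In edgeR's test, 0 of the 42 tested genes were called at an adjusted p under 0.05, against 0.767% of all 16297 genes tested. Their log2 fold changes ran from -1.07 to 0.37, with 21 above 0 and 21 below and a median of 0.0, beside a median of -0.023 over all genes. For 36 of the 42 the change was within 0.5 of 0. The standard errors ran from 0.141 to 0.536 with a median of 0.203, and the 95% interval of 10 genes reached past a log2 change of 1 in either direction, so for these genes a change of that size lay within the error. An unadjusted p under 0.05 was found for 5 genes (11.9%), against 10.8% of all genes. All 5 were lower in RIPK4.si, where 6.0% of all genes had such a p. They were TRAF1, TNFRSF9, BIRC3, TNFSF12 and TNFRSF1B.

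DESeq2, the tool the study used, called 3 of the 42 (7.14%), which were TRAF1, TNFRSF9 and BIRC3. All 3 were lower in RIPK4.si. It called 2.78% of the 15490 genes to which it gave an adjusted p, and 1.38% called lower. When the GC trend of every library was removed, edgeR called the same 3 genes, against 3.27% of all genes called and 1.69% called lower. With a replicate block added to that fit, it called TRAF1 and no other of the 42, against 2.66% of all genes. Without neg.si replicate 3 edgeR called 2 members, TRAF1 and TNFRSF1B, both lower, against 1.78% of all genes called and 1.04% called lower. The study named TRAF1, TNFRSF9 and BIRC3 as changed from the same libraries, so their calls are not independent evidence. It also reported lower transcripts of all 3 by quantitative RT-PCR and lower BIRC3 protein by Western blot after RIPK4 silencing. BIRC3 mRNA was also reported as lower in silenced cells treated with TNF. Those measurements are not part of the data used here. The CPM of the groups did not overlap for 10 of the 42 genes (23.8%), against 17.6% of all genes tested. RIPK4.si lay higher in 3 of these (TNFRSF21, TRAF3 and TNFRSF19), against 8.23% of all genes, and lower in 7 (TRAF1, TNFRSF9, BIRC3, TNFSF12, BIRC6, TNFAIP3 and TNFRSF25), against 9.4%.

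**Figure D2:**
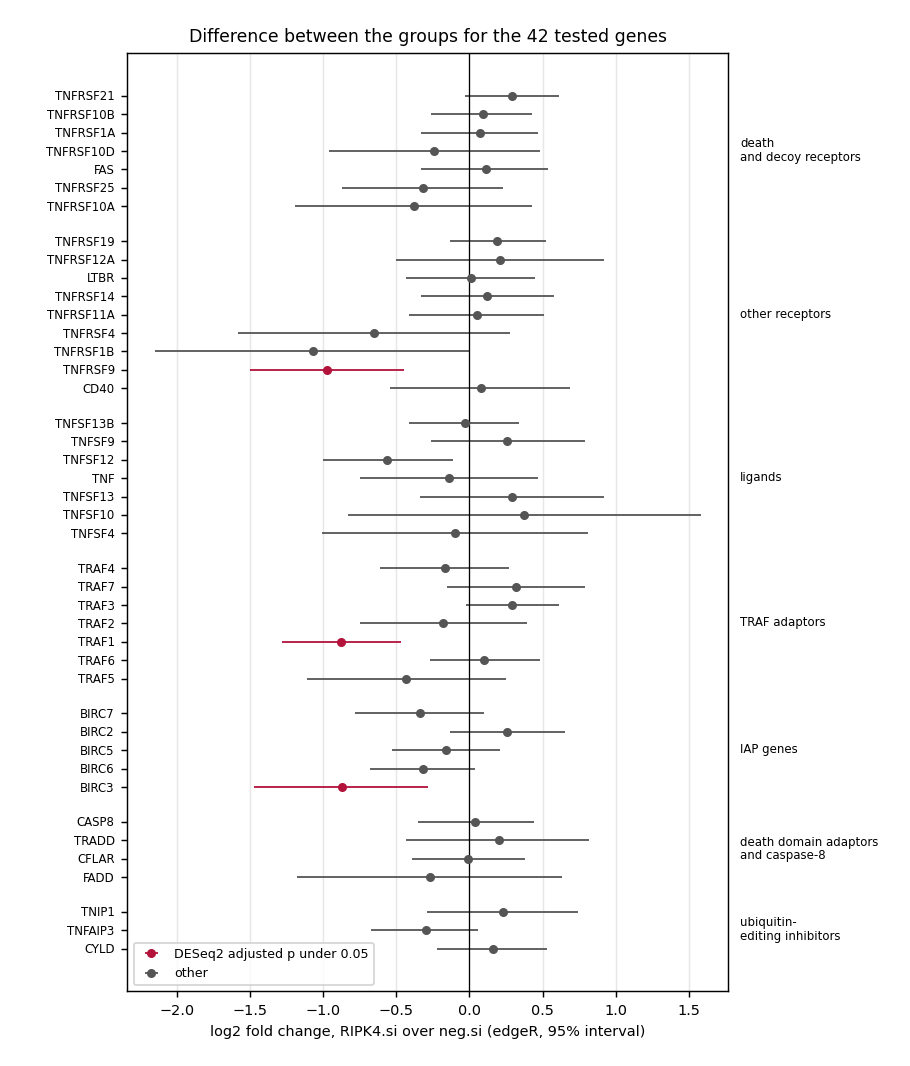
Log2 fold change, RIPK4.si over neg.si, with its 95% interval from edgeR, for the 42 tested genes by role. The intervals of TRAF1, TNFRSF9 and BIRC3, drawn in red because DESeq2 called them, lie wholly below 0, as does that of TNFSF12, and most of the others include 0.

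Of the 20 receptor genes in the table, 16 were tested. Death domain receptors and their decoys made up 7 of these, and 0 of the 7 had an unadjusted p under 0.05, which 10.8% of all genes had, with log2 fold changes from -0.38 to 0.29. TNFRSF21, a death domain receptor, had the highest receptor level per length, in FPKM. It was at 133, 142 and 157 CPM in neg.si and 182, 163 and 184 CPM in RIPK4.si. All RIPK4.si libraries lay higher, with a log2 fold change of 0.29 (95% interval -0.03 to 0.61), which did not pass the test (unadjusted p = 0.0676 from edgeR). TNFRSF1A, the main receptor for soluble TNF, was at 16.2 ± 2.92 FPKM (SD, n = 3) in neg.si and 17.1 ± 1.92 FPKM in RIPK4.si, with a log2 fold change of 0.07 (95% interval -0.33 to 0.47). TNFRSF10B, a receptor for the death ligand TRAIL, was at 21.6 ± 2.13 and 22.9 ± 2.63 FPKM, and the other TRAIL receptor with a death domain, TNFRSF10A, reached only 0.399 ± 0.152 and 0.306 ± 0.0446 FPKM. FAS lay at 0.776 ± 0.174 and 0.834 ± 0.0503 FPKM over a union of exons of 29313 bases, and its mean over all libraries was 0.805 FPKM by that length and 1.43 FPKM by its longest transcript. The decoy TNFRSF10D (4.90 FPKM over all libraries) and the death receptor TNFRSF25 (0.483 FPKM) completed the tested genes of this kind.

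Receptors without a death domain gave 9 tested genes, of which 3 lay below 0 and 6 above. TNFRSF19, an orphan receptor, was at 138, 164 and 163 CPM in neg.si and 166, 182 and 183 CPM in RIPK4.si. The groups just failed to overlap, and the log2 fold change was 0.19 (95% interval -0.13 to 0.52). TNFRSF12A, the receptor of TNFSF12, varied within neg.si from 13.9 to 37.8 CPM and lay from 24.9 to 30.3 CPM in RIPK4.si, inside that range. LTBR and TNFRSF14 were at 12.6 ± 3.32 and 6.64 ± 1.81 FPKM in neg.si and at 12.7 ± 0.525 and 7.23 ± 0.139 FPKM in RIPK4.si. TNFRSF11A, CD40 and TNFRSF4 were each under 1 FPKM.

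TNFRSF9 encodes a costimulatory receptor best known from activated T cells, which signals through TRAF1 and TRAF2. It had 97, 118 and 127 counts in neg.si replicates 1, 2 and 3 and 48, 52 and 68 counts in RIPK4.si replicates 1, 2 and 3. As CPM these were 3.13, 3.93 and 4.0 against 1.64, 1.80 and 2.19, so every RIPK4.si library lay lower than every neg.si library. RIPK4.si held 50.9% of the neg.si level, with a log2 fold change of -0.97 (95% interval -1.50 to -0.45). The adjusted p was 0.117 with edgeR, 0.0415 with DESeq2 and 0.0442 with the GC trend removed, and 0.0675 with that and a replicate block, where edgeR no longer called it. Without neg.si replicate 3 the log2 fold change was -0.91 (adjusted p = 0.11 from edgeR). The transcript was scarce in both groups, at 0.580 ± 0.0757 FPKM (SD, n = 3) in neg.si and 0.295 ± 0.0445 FPKM in RIPK4.si, and TNFRSF9 shares no exonic bases with another annotated gene.

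TNFRSF1B, the second receptor for TNF, was at 3.04, 3.16 and 0.818 CPM in neg.si and 0.784, 1.35 and 1.19 CPM in RIPK4.si. Replicates 1 and 2 of neg.si lay above all others, whereas replicate 3 lay among the RIPK4.si libraries. The log2 fold change was -1.07 (95% interval -2.15 to -0.00, adjusted p = 0.46 from edgeR), the lowest of all 42 genes, and its standard error was 0.477 against a median of 0.203. Without neg.si replicate 3 it became -1.48 (adjusted p = 0.0304 from edgeR), and without neg.si replicate 2 the adjusted p was 0.936. The call for TNFRSF1B thus rested on which neg.si libraries were included.

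Of 9 ligand genes in the table, 7 were tested. TNFSF13B, which encodes the B-cell factor BAFF, was the most abundant, with 25.8, 33.4 and 32.6 CPM in neg.si and 26.8, 32 and 30.7 CPM in RIPK4.si. Its groups overlapped throughout, and the log2 fold change was -0.03 (95% interval -0.41 to 0.34). TNFSF9, the ligand of TNFRSF9, was at 3.92 ± 1.01 FPKM (SD, n = 3) in neg.si and 4.70 ± 0.661 FPKM in RIPK4.si. The ligand was therefore more abundant per length than its receptor in both groups, and its difference was within the spread between replicates.

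TNFSF12 encodes TWEAK, the ligand of TNFRSF12A. It was at 9.88, 9.22 and 7.18 CPM in neg.si and at 5.83, 5.43 and 6.59 CPM in RIPK4.si, with no overlap. The log2 fold change was -0.56 (95% interval -1.0 to -0.11), and it did not pass the test across all genes (adjusted p = 0.316 from edgeR, 0.297 from DESeq2 and 0.0912 with the GC trend removed). It was -0.68 (adjusted p = 0.103 from edgeR) without neg.si replicate 3. Of its exonic bases 12.1% are shared with the readthrough gene TNFSF12-TNFSF13 on the same strand, and 55.5% of those of the neighbouring TNFSF13 are. TNFSF13 was at 1.71 ± 0.139 CPM in neg.si and 2.09 ± 0.575 CPM in RIPK4.si.

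TNF itself was expressed at a low level, with 87, 75 and 53 counts in neg.si and 65, 68 and 55 counts in RIPK4.si. As CPM these were 2.81, 2.50 and 1.67 against 2.22, 2.35 and 1.77, and the groups overlapped. Its log2 fold change was -0.14 (95% interval -0.75 to 0.47, adjusted p = 0.941 from edgeR). TNFSF10, which encodes TRAIL, and TNFSF4 had at most 23 counts in any library, and their intervals, -0.83 to 1.58 and -1.01 to 0.81, set no useful limit.

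All 7 TRAF genes were tested, and all were above 1 FPKM. TRAF4 and TRAF7 were the most abundant, with 17.2 and 14.6 FPKM over all libraries, and TRAF5 the least, with 1.14 FPKM. TRAF4 and TRAF7 did not differ beyond their spread, with neg.si levels of 18.2 ± 4.31 and 13 ± 3.41 FPKM (SD, n = 3).

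TRAF1 is an adaptor without the RING domain of its relatives, which binds TRAF2 and through it BIRC2 and BIRC3. It had 644, 573 and 539 counts in neg.si replicates 1, 2 and 3 and 255, 332 and 334 counts in RIPK4.si replicates 1, 2 and 3. Scaled to library size these were 20.8, 19.1 and 17.0 CPM against 8.69, 11.5 and 10.7 CPM, and the groups were well apart. RIPK4.si reached 54.4% of the neg.si level, a log2 fold change of -0.88 (95% interval -1.28 to -0.47). The adjusted p was 0.0711 with edgeR, 0.00462 with DESeq2 and 0.0153 with the GC trend removed. Without neg.si replicate 3 the log2 fold change was -0.95 and edgeR called the gene (adjusted p = 0.026). With any other library left out it was not called, with an adjusted p of 0.122 to 0.394, and the log2 fold change lay between -0.95 and -0.76. TRAF1 shares no exonic bases with another annotated gene.

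Of the other TRAF genes, 3 had a log2 fold change below 0 and 3 above, and edgeR gave none an unadjusted p under 0.05, which 10.8% of all genes had. TRAF3, an adaptor that holds back the alternative NFκB pathway, was at 64.4, 64.4 and 55.5 CPM in neg.si and 71.4, 77.2 and 77.4 CPM in RIPK4.si. All RIPK4.si libraries lay higher, and the log2 fold change was 0.29 (95% interval -0.02 to 0.61, adjusted p = 0.507 from edgeR). TRAF2, the partner of TRAF1, was at 24.4, 15.9 and 12.4 CPM against 17.3, 16.1 and 13 CPM, with full overlap. TRAF6, which serves interleukin and Toll-like receptors as well, was at 18.5 ± 2.78 CPM in neg.si and 19.8 ± 0.386 CPM in RIPK4.si. TRAF4, TRAF5 and TRAF7 had log2 fold changes of -0.17, -0.43 and 0.32 with intervals that included 0. With neg.si replicate 1 or neg.si replicate 3 left out, that of TRAF5 was -0.64 or -0.04 and that of TRAF7 was 0.52 or 0.14. Of the exonic bases of TRAF7, 21.2% are shared with CASKIN1 on the opposite strand. Set against TRAF2 within each library, per length, TRAF1 was at 0.698, 0.984 and 1.12 times the TRAF2 level in neg.si and 0.411, 0.583 and 0.677 times in RIPK4.si. No RIPK4.si ratio reached the lowest neg.si ratio (exact permutation test, two-sided, p = 0.1, the smallest that 3 libraries against 3 allow). This ratio was chosen after the values of TRAF1 were known.

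The genes whose log2 CPM over the 6 libraries most resembled that of TRAF1 were QDPR, OLIG2, MEST, DYSF and ACP7, with Pearson correlations of 0.9937, 0.9918, 0.9913, 0.9911 and 0.9897. These points share the group difference and the libraries, and none of the 5 is a member of the TNF pathway genes described here.

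BIRC genes encode proteins with the BIR domain of the inhibitors of apoptosis (IAP), and all 5 in the table were tested. BIRC7, a caspase inhibitor known from melanoma, was at 187, 146 and 111 CPM in neg.si and 110, 126 and 115 CPM in RIPK4.si. The neg.si libraries were widely spread, and the log2 fold change was -0.34 (95% interval -0.78 to 0.10), or -0.12 without neg.si replicate 1. BIRC5, which encodes the mitotic protein survivin, was at 74.7 ± 13.3 CPM in neg.si and 67.0 ± 3.64 CPM in RIPK4.si (SD, n = 3). BIRC6, a giant ubiquitin-conjugating enzyme, was at 138, 162 and 192 CPM against 130, 129 and 136 CPM. The groups of BIRC6 did not overlap, although its lowest neg.si library lay just above its highest RIPK4.si library, and the log2 fold change was -0.32 (95% interval -0.68 to 0.04, adjusted p = 0.536 from edgeR). It was -0.18 without neg.si replicate 3.

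BIRC3 had 1420, 2128 and 3013 counts in neg.si replicates 1, 2 and 3 and 1263, 856 and 1333 counts in RIPK4.si replicates 1, 2 and 3. As CPM these were 45.9, 70.9 and 94.8 against 43.0, 29.6 and 42.9. All neg.si libraries lay higher, but replicate 1 of neg.si exceeded 2 of the RIPK4.si libraries by little. The mean level in RIPK4.si was 54.6% of that in neg.si, with a log2 fold change of -0.87 (95% interval -1.47 to -0.28). The adjusted p was 0.22 with edgeR, 0.0477 with DESeq2 and 0.0417 with the GC trend removed, and 0.0517 with that and a replicate block, where edgeR no longer called it. BIRC3 has the lowest GC content of the tested genes of the pathway, 35.8% in its longest transcript, and its level in neg.si replicate 3 was 1.05 above that in replicate 1 on the log2 scale. Without neg.si replicate 3 its log2 fold change was -0.60 (adjusted p = 0.226 from edgeR), and without neg.si replicate 1 it was -1.09 (adjusted p = 0.0589).

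BIRC2 is the neighbour of BIRC3 on chromosome 11 and encodes a closely related ubiquitin ligase. It was at 96.5, 120 and 144 CPM in neg.si and 134, 149 and 149 CPM in RIPK4.si. In RIPK4.si, 2 of the 3 libraries lay above every neg.si library, and the log2 fold change was 0.26 (95% interval -0.13 to 0.65, adjusted p = 0.704 from edgeR), and it was 0.14 if neg.si replicate 1 was omitted but 0.42 if replicate 3 was. Per length, BIRC2 was more abundant than BIRC3 in every library. The ratio of BIRC3 to BIRC2 was 0.287, 0.355 and 0.397 in neg.si and 0.193, 0.120 and 0.174 in RIPK4.si. Its mean was 0.346 ± 0.0555 against 0.162 ± 0.0380 (SD, n = 3), and no RIPK4.si ratio reached the lowest neg.si ratio (exact permutation test, two-sided, p = 0.1, the smallest possible). The GC content of BIRC2, 38.0%, is near that of BIRC3, and its level in neg.si replicate 3 was likewise above that in replicate 1, by 0.58 on the log2 scale. The ratio was formed after the values of BIRC3 were known.

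**Figure D3:**
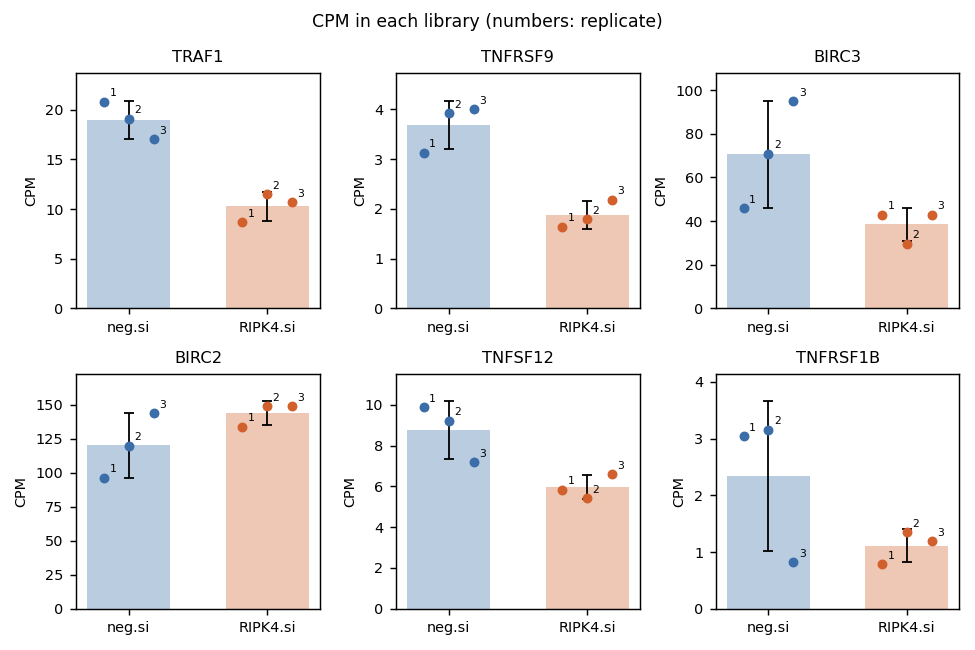
CPM of TRAF1, TNFRSF9, BIRC3, BIRC2, TNFSF12 and TNFRSF1B in each library (points, with the replicate number), the group means (bars) and the SD of 3 libraries (error bars), on axes from 0. TRAF1 and TNFRSF9 show tight groups, BIRC3 and TNFRSF1B show neg.si libraries that spread over a wide range, and BIRC2 lies higher on average in RIPK4.si.

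The adaptors of death domain receptors and caspase-8 overlapped between the groups in all 4 genes, where 17.6% of all genes tested did not overlap. CASP8 was at 39.7, 43.8 and 52.7 CPM in neg.si and 54.6, 39.9 and 46.0 CPM in RIPK4.si, with a log2 fold change of 0.04 (95% interval -0.35 to 0.44). CFLAR, the catalytically inactive relative of caspase-8, was at 25.8 ± 2.16 CPM (SD, n = 3) and 25.7 ± 3.96 CPM, a log2 fold change of -0.01 (95% interval -0.39 to 0.38). TRADD, which links TNFRSF1A to its downstream kinases, varied from 5.67 to 10.2 CPM in neg.si and from 7.11 to 11.5 CPM in RIPK4.si. FADD was at 2.12 ± 0.872 and 1.75 ± 0.720 CPM, and 59.2% of its exonic bases are shared with an antisense long noncoding RNA. How the counting treated reads in bases that 2 genes share is not given in the sources used here, so such reads may be mixed between the genes or left out.

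The 3 inhibitors that act on ubiquitin were all tested. TNFAIP3, a deubiquitinating and ubiquitin-ligating enzyme that NFκB induces, was at 31.9, 33.8 and 35.9 CPM in neg.si and 30.3, 23.0 and 29.0 CPM in RIPK4.si. All RIPK4.si libraries lay lower, with a log2 fold change of -0.30 (95% interval -0.67 to 0.06, adjusted p = 0.581 from edgeR), or -0.18 without RIPK4.si replicate 2. TNIP1, its binding partner, was at 129, 106 and 72.7 CPM against 104, 146 and 109 CPM, and CYLD, a deubiquitinase, at 25.7, 32.8 and 33.9 CPM against 31.8, 36.9 and 34.2 CPM. Both overlapped between groups, with log2 fold changes of 0.23 (95% interval -0.29 to 0.74) and 0.16 (95% interval -0.22 to 0.53). That of TNIP1 ran from 0.03 when neg.si replicate 3 was left out to 0.44 when neg.si replicate 1 was.

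Other genes of the pathway were taken from lists written from general knowledge. Members of the same families with other names numbered 12, of which 10 were in the table and 8 were tested. Of these 0 were called by edgeR (0.767% of all genes were), by DESeq2 (2.78%) or after removal of the GC trend (3.27%). An unadjusted p under 0.05 was found for 0, against 10.8% of all genes, and so few genes say little. The smallest p belonged to the ligand genes LTA (log2 fold change -0.89, unadjusted p = 0.0866 from edgeR) and CD70 (-0.31, unadjusted p = 0.149 from edgeR), and LTA had at most 14 counts in a library. A list of 23 partners that act with the TRAF and IAP proteins held kinases and their subunits, enzymes that build or remove ubiquitin chains, caspases and antagonists of the IAP proteins, among others, and 22 were tested, 11 above 0 and 11 below, with a median log2 fold change of -0.01. edgeR called 0 of them, against 0.767% of all genes, and 2 had an unadjusted p under 0.05, against 10.8% of all genes. DESeq2 called 2, against 2.78% of all genes, among them IKBKB, the kinase that marks the NFκB inhibitor for degradation. IKBKB was at 28.1 ± 1.21 CPM in neg.si and 18.6 ± 0.922 CPM in RIPK4.si (SD of 3 libraries, adjusted p = 0.128 from edgeR and 0.0388 from DESeq2). With the GC trend removed it was the 1 gene of this list that was called (adjusted p = 0.0305), against 3.27% of all genes, and 0 were called with that trend removed and a replicate block, against 2.66% of all genes.

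The list of NFκB target genes held 21 genes, and 19 were tested. Of these 0 were called by edgeR (0.767% of all genes were), by DESeq2 (2.78%) or after removal of the GC trend (3.27%). With edgeR 5 had an unadjusted p under 0.05, a p that 10.8% of all genes tested had. Their median log2 fold change was -0.08, with 5 above 0 and 14 below, beside 7596 above and 8701 below over all genes tested. The chemokine genes CCL20 and CXCL2 had the smallest p and lay in opposite directions. CCL20 was at 2.71, 2.23 and 3.75 CPM in neg.si and 4.43, 5.64 and 4.76 CPM in RIPK4.si, with a log2 fold change of 0.77 (adjusted p = 0.247 from edgeR). CXCL2 was at 3.29, 2.73 and 3.46 CPM against 2.15, 2.15 and 2.09 CPM, a log2 fold change of -0.57 (adjusted p = 0.353 from edgeR). The remaining 3 with an unadjusted p under 0.05 were CXCL3 and PTX3, which lay lower, and CCL2, which lay higher, and these 3 were named after their values were seen.

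The 7-base sequence ACAGCTT had gone with lower transcript levels in RIPK4.si in an earlier analysis of these libraries, so its relation to change here is no independent evidence. When the longest 3′ UTR of each gene was searched, 10 of the 42 members (23.8%) held it, against 15.9% of 12954 protein-coding genes that were tested. The 10 were TRAF1, TNFRSF9, TRAF3, TRAF7, CYLD, BIRC5, FADD, FAS, TNF and CFLAR, and BIRC3 was not among them. The site of FAS (chr10:89021658-89021686) lies past the end of that gene in the deposited table, at base 89017059. Of the 10, 6 had a log2 fold change below 0 and 4 above, with a median of -0.07, against 0.03 for the members without it. Among all 2066 protein-coding genes with it, 1355 lay below 0 and 711 above, with a median of -0.1. Among the members, the 3′ UTRs that held the sequence were longer, with a median of 3800 bases against 1170 in those without it. Over all tested protein-coding genes the medians were 3240 and 1280 bases. The sites of TRAF1 and TNFRSF9, which lay lower in RIPK4.si, and of TRAF3, which lay higher, are shown on the transcript strand (GRCh38) with the 7 bases in capitals.
TRAF1, chr9:120903566-120903594, minus strand: ctgctttcctgACAGCTTactcttcctcc
TNFRSF9, chr1:7920749-7920777, minus strand: catccgctatcACAGCTTtcaaaagcaag
TRAF3, chr14:102907632-102907660, plus strand: gccgcgcggggACAGCTTggtgggtgccc

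The spread between the neg.si libraries followed base composition in these genes. Across the 42 tested genes, the log2 ratio of neg.si replicate 3 to replicate 1 had a Pearson correlation of -0.841 and a Spearman correlation of -0.854 with the GC content of the longest transcript. Across all 16239 tested genes with a GC value the Pearson correlation was -0.615. Genes of the same libraries share their depth and preparation and are not independent, so these are descriptions. GC-rich TNFRSF12A (64.2% GC, log2 ratio -1.44), TNFRSF1B (59.5%, -1.77) and BIRC7 (65.0%, -0.75) lay lower in replicate 3, whereas GC-poor BIRC3 (35.8%, 1.05), BIRC2 (38.0%, 0.58) and TRAF5 (42.8%, 1.15) lay higher. TRAF1 (55.4%, -0.29) and TNFRSF9 (43.4%, 0.34) moved less between these libraries. GC content had a correlation of -0.061 with the log2 fold change of the same 42 genes.

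**Figure D4:**
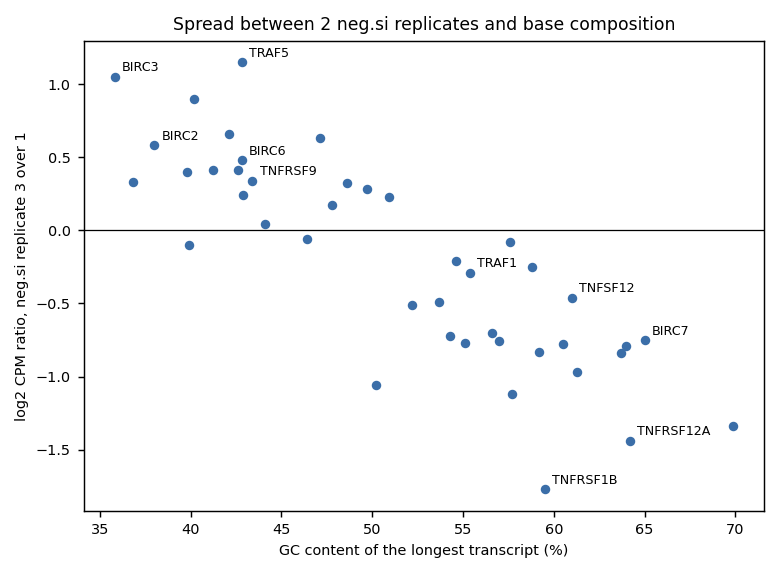
Log2 ratio of CPM in neg.si replicate 3 over neg.si replicate 1 (vertical axis) against the GC content in percent of the longest transcript (horizontal axis) for the 42 tested genes, 1 point per gene, with the genes named in the text labelled. The points fall from the upper left to the lower right, with BIRC3 and TRAF5 at the top and TNFRSF1B at the bottom.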

How the data were processed

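The 6 RNA-seq libraries came from WM266.4 cells, 3 neg.si and 3 RIPK4.si, as grouped by the labels. The authors made poly(A) libraries for the BGISEQ-500, trimmed paired reads with Cutadapt (quality 25, minimum length 15), aligned them to GRCh38.p13 with TopHat and counted pairs per gene with HTSeq, ignoring strand. The deposited values used are whole-number counts per gene, not normalized, for 24526 genes with at least 6 counts in total. Columns with the authors' own normalized values, fold changes and p-values were not used.

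Counts were tested in edgeR 4.0.16 (R 4.3.3) by its quasi-likelihood method, after TMM scaling and filtering of genes with low counts, over 16297 genes, with Benjamini-Hochberg adjustment and a call at an adjusted p under 0.05. A standard error is the log2 fold change divided by the square root of F. CPM used normalized library sizes, and log2 ratios of neg.si libraries a pseudocount of 0.1 CPM. FPKM used the union of exons in GENCODE 44, which held 24416 of the gene identifiers and all 48 members. Only 33 members had the same chromosome, start and end there as in the deposited table. For the others, such as FAS, the length may differ from that of the gene as counted. Library totals of 28464057 to 31688095 limit precision for genes with few counts, and a limit of 3 counts was used for a count of 0, which covers counting error only. Pairs of replicates differed with chi-square of 16.4 to 117 per degree of freedom, so no replicates agreed within sampling noise. Python 3.11.15, pandas 2.3.3, scipy 1.17.1 and matplotlib 3.10.9 were used otherwise. The test was checked on simulated counts with the same dispersion for every gene and no GC trend. That check does not cover the GC trends of these libraries.

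Members and lists were chosen with earlier results of these data known. Named in full were members called by edgeR or DESeq2, those with an unadjusted p under 0.05, those the study names as changed, the most abundant member of each role, and all TRAF, IAP, adaptor and inhibitor genes and TNF. From the other lists, called genes or the 2 smallest p were named (1 gene that meets this rule is not reported here), and for TRAF1 the 5 genes most correlated with it. Further members are named more briefly, to account for the rule. The alternatives were the Wald test of DESeq2 1.42.0, edgeR with upper-quartile factors or with the size factors of DESeq2, edgeR unfiltered or over genes with 10 or more counts per library, a replicate block, removal of a lowess trend on GC content (span 0.3), that trend with the block, and each library left out.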

Additional observations from a re-analysis of the deposited data

How the results depend on the processing

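Of 364 log2 fold changes of the 26 members named in full, recomputed under alternatives, 335 kept direction and side of the threshold, 9 became called and 20 changed sign, and since edgeR called no member, none could lose a call. With a library left out, ranges of the genes that changed sign were -0.13 to 0.05 for TNFSF13B, -0.33 to 0.04 for TNF, -0.33 to 0.02 for TRAF4, -0.38 to 0.15 for TRAF2, -0.07 to 0.17 for CASP8, -0.05 to 0.50 for TRADD, -0.51 to 0.11 for FADD and -0.10 to 0.12 for CFLAR. CFLAR was also 0.01 with DESeq2, upper-quartile normalization or no filter, 0.0021 with DESeq2's size factors, and 0.02 with the GC trend removed, with or without the replicate block. The count of genes called, 125 with edgeR, was 430 with DESeq2, 533 with the GC trend removed and 434 with that and the replicate block, and it ran from 0 to 295 with a library left out. Omission of neg.si replicate 3 gave 295, and omission of RIPK4.si replicate 1, of RIPK4.si replicate 3 or of neg.si replicate 2 gave 0, with an unadjusted edgeR p under 0.05 for 1426, 1086 and 1153 genes. Members called, 0 with edgeR, numbered 3 with DESeq2 and with the GC trend removed, 1 (TRAF1) with that and the replicate block, and 0 to 2 with a library left out. Signalling partners called were 2 with DESeq2, 1 with the GC trend removed and 0 with that and the replicate block. RIPK4 stayed between -2.06 and -1.74 with a library left out, and lost its call without any RIPK4.si library or without neg.si replicate 2. The cause of these differences was not tested. Same-numbered libraries of the groups had correlations of deviations of -0.242, 0.251 and 0.346, not all above 0.1, and the labels do not say what a number marks, so the libraries were not treated as paired. The replicate block gave 131 called genes and 0 called members.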
